A study of Mus musculus with 3 samples.

Results

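Myoepithelial nuclei were described in single-nucleus RNA libraries made from submandibular salivary glands of mice. A barcode counted as a nucleus when it had at least 500 detected genes and at most 5% mitochondrial counts. It counted as myoepithelial when at least 3 of Ptprz1, Fhod3, Rgs6, Postn, Myh11, Pgm5, Synpo2 and Kcnq5 had a unique molecular identifier (UMI, a count of a single captured RNA molecule), with Ptprz1 or Rgs6 among them. At most 1 of Pdgfra, Abca8a, Flt1, Ptprb, Ptprc and Notch3, which mark fibroblasts, endothelium, immune cells and pericytes, could be detected as well. Members were thus chosen by detection of these 14 genes. The rule found 1646 members among 27633 nuclei. These were 415 of 10635 nuclei of the non-irradiated library, 458 of 8622 of the irradiated + saline library and 773 of 8376 of the irradiated + pilocarpine library, and values for the 3 libraries stand in this order wherever 3 are given together.

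All mice were wild type per the labels. The non-irradiated gland had no treatment, so irradiation and saline cannot be told apart in a comparison with it. The saline gland was taken 90 days after irradiation per the title and 93 days per the protocol. The pilocarpine gland was taken at the same times and had received pilocarpine, a drug that activates muscarinic receptors and makes salivary glands secrete, from day 30 to day 90. Each group is 1 library. The number, sex and age of the mice are not given in the labels, nor is the hour of collection. Nuclei were released mechanically from frozen glands and sorted on the DNA stain DAPI. With 1 library per group there is no replicate check and no test between groups: every interval below is a 95% interval for counting error only, and differences between glands of the same group are not in it. Intervals of levels and ratios take each UMI as independent. Uneven spread of a gene's UMIs over nuclei is thus not in them either, and they are too narrow where 1 nucleus holds many of the UMIs.

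Myoepithelial cells are flat, star-shaped epithelial cells that lie between the secretory acini or intercalated ducts and the basement membrane. They carry smooth muscle actin and myosin together with the keratins and the p63 transcription factor of basal epithelium. They contract when autonomic nerves release their transmitters, which helps to expel saliva, and they make part of the basement membrane on which the acini rest.

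The genes of the rule describe how the members were chosen and are no finding. Their levels are given as CPM, the UMIs of a gene per 1000000 UMIs of the nuclei in question. Myh11, the smooth muscle myosin heavy chain, was at 1593, 1768 and 1813 CPM in members, against 28.5, 18.6 and 62.0 CPM in the other nuclei. Ptprz1, a receptor tyrosine phosphatase, was at 610, 825 and 614 CPM against 11.6, 10.6 and 22 CPM. Fhod3, a formin that assembles actin filaments, was at 1214, 1473 and 1726 CPM against 25.5, 22.8 and 64.4 CPM. Rgs6, a regulator of G protein signalling, was at 981, 1253 and 1388 CPM against 18.6, 20.4 and 46.8 CPM. Of all members, 69.9%, 69.7% and 67.3% had 6 or more of the 8 counted genes.

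The label was checked on genes that the rule did not use. Acta2, smooth muscle alpha actin (ENSMUSG00000035783, minus strand of chr19:34241090-34255590 in GRCm38), was detected in 64.8%, 68.8% and 71.3% of members and in 1.34%, 1.52% and 3.70% of the other nuclei. Trp63, the p63 factor of basal epithelium (ENSMUSG00000022510, plus strand of chr16:25683763-25892102), was detected in 65.5%, 68.6% and 67.5% of members against 1.38%, 1.34% and 3.77% of the others. Krt14, a basal keratin, was detected in 9.88%, 15.5% and 12.7% of members against 0.225%, 0.355% and 0.750% of the others. The median depth was 1908, 2140.5 and 2075 UMIs in members and 1523, 2112.5 and 2046 UMIs in the others. Of 12 known myoepithelial markers outside the rule, at least 1 had a UMI in 95.9%, 96.3% and 97.7% of members and in 7.15%, 10.9% and 13.1% of the others. The exception was Oxtr, the oxytocin receptor, a known myoepithelial gene of the mammary gland, with 0, 1 and 0 UMIs in members.

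**Figure D1:**
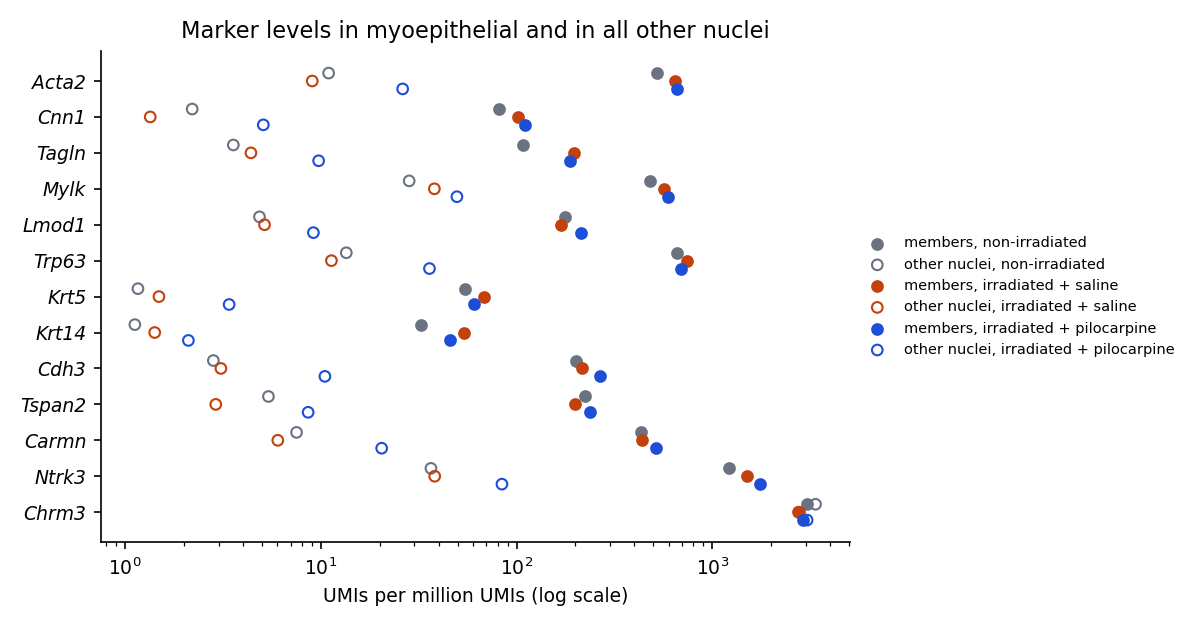
Levels of 13 genes outside the rule, in CPM on a log axis, in members (filled points) and in all other nuclei (open points) of each library. The contractile and basal genes sit more than 10 times higher in members in every library, whereas Chrm3 has nearly the same level in both sets of nuclei.

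The same nuclei carried the muscle and the basal programme. At least 1 UMI of Krt5, Krt14 or Trp63 and at least 1 UMI of Acta2, Cnn1, Tagln, Mylk or Lmod1 stood together in 68.7%, 70.7% and 70.9% of members. Members with contractile genes alone numbered 89, 92 and 165, those with the basal genes alone 18, 22 and 34, and those with neither 23, 20 and 26. Nuclei with neither were shallower, with medians of 1269, 1681.5 and 1180.5 UMIs against 2139, 2486 and 2308 UMIs in those with both. Vascular smooth muscle and pericytes share the contractile genes, so their nuclei were set beside the members. At least 3 of 6 pericyte or vascular smooth muscle genes were detected in 45, 69 and 92 nuclei, of which 21, 35 and 22 were no members and met neither of the like rules for fibroblast and Schwann genes. In this selected remainder the 12 myoepithelial markers summed to 207, 150 and 160 CPM, against 2364, 2830 and 2897 CPM in members, and Trp63 was at 0, 0 and 19.1 CPM.

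The 20 genes outside the rule that led most over other nuclei in the least favourable library had ratios of CPM + 1 of at least 24.9 (Tspan2) down to at least 19.0 (Kcnh1). They held actin and muscle genes (Acta2, Lmod1, Nebl), Carmn, a long noncoding RNA of smooth muscle, and cell contact and guidance genes (Cdh3, Ctnnd2, Ntng1, Sema5a). They also held the neurotrophin-3 receptor Ntrk3, the placental growth factor Pgf, the secreted protein Ism1, the protease Adamts18, Pcp4, the calcium-binding protein Vsnl1 and the potassium channel Kcnh1. Tspan2 was at 225, 200 and 238 CPM in members and at 5.40, 2.90 and 8.61 CPM in the others. Carmn was at 434, 438 and 514 CPM against 7.52, 6.03 and 20.5 CPM. The level in other nuclei was highest in the pilocarpine library for both, as for Acta2 (11.0, 9.04 and 26.2 CPM), and that library also held the most nuclei that missed the rule on the excluding genes alone (73, 55 and 170).

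At the edge of the rule, nuclei with 3 counted genes (21, 35 and 37) had Acta2 at 125, 121 and 135 CPM, and 47.6%, 48.6% and 59.5% of them had a basal gene. Nuclei just outside, with 2 counted genes (21, 42 and 50), had Acta2 at 26.8, 19.3 and 52.2 CPM, and 4.76%, 7.14% and 20% had a basal gene. Members with 6 to 8 counted genes had Acta2 at 615, 745 and 762 CPM.

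Promoter sequence was set beside the levels for 2 groups of genes the results below turn on. Few contractile genes differed 2-fold between libraries in members, and many genes of this kind are driven by serum response factor (Srf) at a CArG box. Interferon genes were among those that differed 2-fold or more, and promoters of such genes often hold repeats of GAAA. The windows are the 250 bases before the RefSeq gene start in GRCm38.p6, printed from 5′ to 3′ along the gene, and capitals mark a match on either strand. Myl9, the regulatory light chain of smooth muscle myosin (plus strand, chr2:156775214-156775463), Srf itself (minus strand, chr17:46556163-46556412) and Dmd, dystrophin (plus strand, chrX:82948620-82948869), have a CArG box, which reads the same on both strands. Gbp2 (plus strand, chr3:142620413-142620662), Gbp5 (plus strand, chr3:142496684-142496933) and Igtp (plus strand, chr11:58199306-58199555), all GTPases of the response to interferon-gamma, have a pair of GAAA with any 2 bases (NN) between.
Myl9: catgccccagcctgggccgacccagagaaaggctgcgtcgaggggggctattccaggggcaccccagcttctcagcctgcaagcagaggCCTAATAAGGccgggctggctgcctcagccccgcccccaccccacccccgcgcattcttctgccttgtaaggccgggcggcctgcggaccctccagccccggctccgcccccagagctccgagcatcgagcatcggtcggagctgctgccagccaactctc
Srf: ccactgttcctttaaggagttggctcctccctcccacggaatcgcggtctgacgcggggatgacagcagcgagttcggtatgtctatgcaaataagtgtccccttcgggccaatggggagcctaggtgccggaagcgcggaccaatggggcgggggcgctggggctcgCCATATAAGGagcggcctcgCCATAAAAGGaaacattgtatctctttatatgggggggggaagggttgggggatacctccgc
Dmd: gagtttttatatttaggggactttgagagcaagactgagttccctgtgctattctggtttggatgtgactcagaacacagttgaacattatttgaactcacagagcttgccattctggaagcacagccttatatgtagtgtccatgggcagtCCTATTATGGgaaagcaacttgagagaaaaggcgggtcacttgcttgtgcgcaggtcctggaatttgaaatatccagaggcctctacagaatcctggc
Gbp2: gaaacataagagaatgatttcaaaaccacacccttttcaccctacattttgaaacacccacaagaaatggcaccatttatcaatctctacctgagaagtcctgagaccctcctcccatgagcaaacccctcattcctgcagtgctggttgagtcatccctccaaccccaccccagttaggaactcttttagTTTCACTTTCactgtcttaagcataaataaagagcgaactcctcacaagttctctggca
Gbp5: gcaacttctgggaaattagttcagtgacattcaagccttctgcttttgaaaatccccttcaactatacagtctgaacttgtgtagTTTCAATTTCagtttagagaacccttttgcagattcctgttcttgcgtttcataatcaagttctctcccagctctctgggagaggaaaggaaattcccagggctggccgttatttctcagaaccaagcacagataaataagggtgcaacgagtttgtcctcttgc
Igtp: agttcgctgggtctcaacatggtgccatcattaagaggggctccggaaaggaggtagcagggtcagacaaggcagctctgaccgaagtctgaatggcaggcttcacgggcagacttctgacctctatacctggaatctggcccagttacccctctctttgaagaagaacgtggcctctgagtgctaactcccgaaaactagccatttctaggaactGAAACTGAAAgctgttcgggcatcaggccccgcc
The CArG box starts 161 bases before the gene start in Myl9, 98 in Dmd, and 82 and 62 in Srf. The GAAA pair starts 59 bases before it in Gbp2, 165 in Gbp5 and 34 in Igtp. Over the contractile list, 29 genes had a window, and the CArG box stood in 6 of their 41 windows (14.6%), in Dmd, Ldb3, Myl6, Myl9 and Srf. The share over all promoters was 482 of 32851 windows (1.47%). Over the interferon list, 32 genes had a window, and the GAAA pair stood in 13 of their 40 windows (32.5%) against 978 of 32851 (2.98%) over all promoters. Gbp5 and Igtp are outside that list. A match is a run of letters and no evidence of binding in these nuclei.

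Members made up 3.90% (3.54 to 4.29) of the nuclei of the non-irradiated library, 5.31% (4.85 to 5.81) of the saline library and 9.23% (8.62 to 9.87) of the pilocarpine library. The saline library exceeded the non-irradiated library by 1.41 percentage points (0.815 to 2.02), a ratio of shares of 1.36. The pilocarpine library exceeded the saline library by 3.92 points (3.14 to 4.70), a ratio of 1.74, and the non-irradiated library by 5.33 points (4.61 to 6.06), a ratio of 2.37. The 3 shares were thus ordered with pilocarpine highest, and neighbours in that order did not overlap in their counting intervals. Whether more myoepithelial cells, fewer other cells or unequal release of nuclei lies behind a share cannot be told apart in these data.

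The order held in part when nuclei of like depth were compared. Among nuclei with 500 to under 1000 UMIs the shares were 2.66%, 4.41% and 7.82%, among those with 1000 to under 2000 UMIs 3.24%, 5.61% and 9.49%, and among those with 2000 to under 4000 UMIs 4.33%, 5.43% and 9.58%. Among nuclei with 4000 UMIs or more they were 8.82% (7.13 to 10.8), 5.24% (4.26 to 6.36) and 9.02% (7.67 to 10.5). In that deepest band the non-irradiated share was above the saline share and overlapped the pilocarpine share. With a minimum of 1000 genes per nucleus, the saline library exceeded the non-irradiated library by 0.414 points (−0.435 to 1.26), an interval that includes 0.

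**Figure D2:**
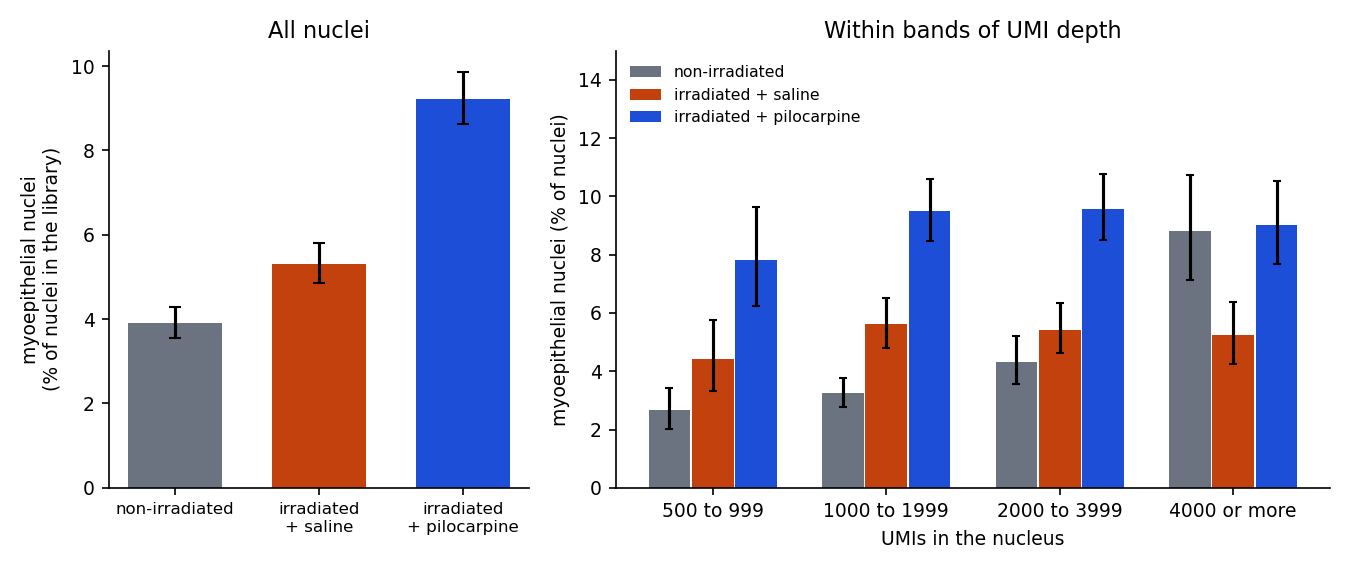
Share of myoepithelial nuclei among all nuclei of each library (left, % of nuclei) and within 4 bands of UMIs per nucleus (right), with exact 95% binomial intervals that cover counting error only. The pilocarpine bar is the highest in the left panel at 9.23%, while in the deepest band the non-irradiated and pilocarpine bars overlap.

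The sum of markers was also taken without any cell rule. Summed over every nucleus of a library, the 12 myoepithelial markers outside the rule stood at 203, 231 and 358 CPM. The saline level was 1.14 times (1.10 to 1.18) the non-irradiated level, and the pilocarpine level was 1.55 times (1.5 to 1.60) the saline level and 1.76 times (1.71 to 1.82) the non-irradiated level. These ratios are of UMIs and were smaller than those of the shares, which count nuclei. Members held 67.6%, 68.6% and 60.0% of the UMIs of these markers, and 5.80%, 5.60% and 7.41% of all UMIs in nuclei. By share of all UMIs, the saline library was thus not above the non-irradiated one. For Krt5, the level over all nuclei was 4.26, 5.24 and 7.61 CPM, and for Acta2 it was 40.8, 44.8 and 73.0 CPM. Lmod1 (14.9, 14.4 and 24.3 CPM) and Actg2 (2.66, 2.57 and 4.59 CPM) were not higher with saline than without irradiation. At least 3 of 6 fibroblast genes were detected in 556, 583 and 758 nuclei. Of these, 480, 477 and 594 were no members and met neither of the like rules for pericyte and Schwann genes, and they are called fibroblast nuclei here. They made up 4.51%, 5.53% and 7.09% of nuclei. There were 0.865, 0.960 and 1.30 myoepithelial nuclei per fibroblast nucleus, 19.8, 13.1 and 35.1 per pericyte or vascular smooth muscle nucleus and 12.2, 10.4 and 13.3 per Schwann nucleus. The pilocarpine library was highest against each, while the saline library was above the non-irradiated one against fibroblasts and below it against the other sets, which held 21 to 58 nuclei.

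Between libraries, a gene was called when its CPM in members differed at least 2-fold and it had at least 20 UMIs in both libraries together. By this rule of size, which is not a test, 694 of 11207 genes (6.19%) were called between the saline and non-irradiated libraries, 447 higher and 247 lower with saline. Between pilocarpine and saline 622 of 12022 genes (5.17%) were called, 235 higher and 387 lower with pilocarpine. In nuclei thinned to 800 UMIs the split was 206 higher and 176 lower for the first comparison and 202 higher and 178 lower for the second, and 46 of those 382 genes and 38 of those 380 were also called at full depth. Thinning applied the rule anew and left 286, 330 and 595 members with 228800, 264000 and 476000 UMIs. Thinned calls and medians cover only genes that kept 20 UMIs, 4766, 6270 and 5967 in the 3 comparisons. Thinned ratios of single genes had no such minimum, and those of genes with few UMIs rest on very few counts. Between pilocarpine and non-irradiated 799 of 11781 genes (6.78%) were called, 479 higher and 320 lower with pilocarpine. Free RNA was also subtracted, taken as the summed profile of all other nuclei, their own RNA included, and not measured apart from nuclei. Scaled on the acinar secretory products, it came to 64.1%, 62.5% and 72.6% of the members' UMIs, and negative results were cut off. How much of this was free RNA was not tested. After this subtraction the splits were 1711 higher and 1932 lower, 1049 and 3136, and 1432 and 3363. The first and last comparisons share the non-irradiated library, so their values are given side by side and are not independent.

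RNA of acinar and duct cells was present in members and in most other nuclei. The acinar secretory products took 3.60%, 3.38% and 4.68% of the UMIs in members and 5.61%, 5.41% and 6.44% in the other nuclei. Granular and striated duct markers summed to 4336, 5981 and 2187 CPM in members and to 3518, 7705 and 2713 CPM in the others, with Ren1 at 0 in the first and second libraries. Fibroblast markers were at 267, 302 and 346 CPM in members (others 366, 413 and 460) and Schwann markers at 531, 438 and 576 CPM (others 296, 354 and 407). Pericyte markers were at 124, 174 and 104 CPM (others 79.7, 117 and 113) and endothelial markers at 67.4, 15.9 and 28.7 CPM (others 197, 207 and 258). Immune markers were at 44.5, 112 and 73.7 CPM (others 59.1, 132 and 125), with 7, 9 and 8 of 9 detected with Cd3e at 0 in the first and last libraries and Themis at 0 in the first. Genes whose level in members is at or below that in the other nuclei are named as such below.

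The contractile apparatus differed little between libraries. None of its 32 measured genes was called between saline and non-irradiated (background 6.19%), none of 33 between pilocarpine and saline (5.17%), and 1 of 33 between pilocarpine and non-irradiated (6.78%). The median log2 ratios were 0.14, 0.04 and 0.17, against 0.03, −0.00 and 0.02 over all genes tested. The exception was Ppp1r14a, an inhibitor of myosin phosphatase, which had 5, 14 and 21 UMIs and a pilocarpine over non-irradiated ratio of 2.52 (0.925 to 8.56). The summed level of the list was 20674, 22474 and 23071 CPM. The calls, medians and sum include Myh11, Fhod3, Synpo2 and Pgm5, which are genes of the rule. Their likeness between libraries was thus partly set by the choice of members. The same holds for Postn, Rgs6 and Kcnq5 in the matrix, receptor and ion channel lists below. When every nucleus was thinned to 800 UMIs, the medians were 0.02, −0.09 and −0.01, the last 2 below 0. Thinned medians, here and for the lists below, rest on members chosen anew and on genes that kept the UMI minimum. They thus do not show a change in the same genes and nuclei.

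At full depth, 23 of 32 contractile genes, those of the rule included, lay above the non-irradiated level with saline and 27 of 33 with pilocarpine. Over all genes tested, 5947 of 11207 and 6200 of 11781 did. Acta2 was at 525, 648 and 658 CPM, 1.23 times (1.12 to 1.36) the non-irradiated level with saline and 1.25 times (1.15 to 1.37) with pilocarpine. Mylk, the kinase that triggers contraction by phosphorylating myosin light chains, was at 483, 567 and 591 CPM, with ratios of 1.17 and 1.22. Dmd, which ties actin to the cell membrane and its matrix receptor, was at 4256, 5144 and 5013 CPM, with ratios of 1.21 and 1.18. Cnn1, calponin, was at 80.9, 102 and 111 CPM, and Lmod1, which nucleates actin filaments, at 177, 170 and 214 CPM. For these 5 genes the saline and pilocarpine levels were within 1.26-fold of each other.

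Tagln, transgelin, an actin-binding protein of smooth muscle, stood out among them. It had 161, 323 and 464 UMIs, or 109, 198 and 188 CPM. Its level was 1.82 times (1.5 to 2.21) the non-irradiated level with saline and 1.73 times (1.44 to 2.08) with pilocarpine, and the saline and pilocarpine levels overlapped. In the other nuclei it was at 3.57, 4.39 and 9.75 CPM. Tpm2, a tropomyosin, was at 111, 171 and 136 CPM, highest with saline at 1.54 times (1.27 to 1.88) the non-irradiated level. Flna, which crosslinks actin, was at 259, 346 and 359 CPM, with ratios of 1.34 (1.17 to 1.52) and 1.39 (1.23 to 1.57). The regulators of contraction Ppp1r12a (1954, 1817 and 1872 CPM) and Prkg1 (2600, 2727 and 2771 CPM) were within 1.08-fold in all 3 comparisons. Myl9 was at 77.5, 102 and 85.8 CPM, and Srf, the factor of the CArG box, at 8.09, 7.96 and 8.50 CPM from 12, 13 and 21 UMIs.

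**Figure D3:**
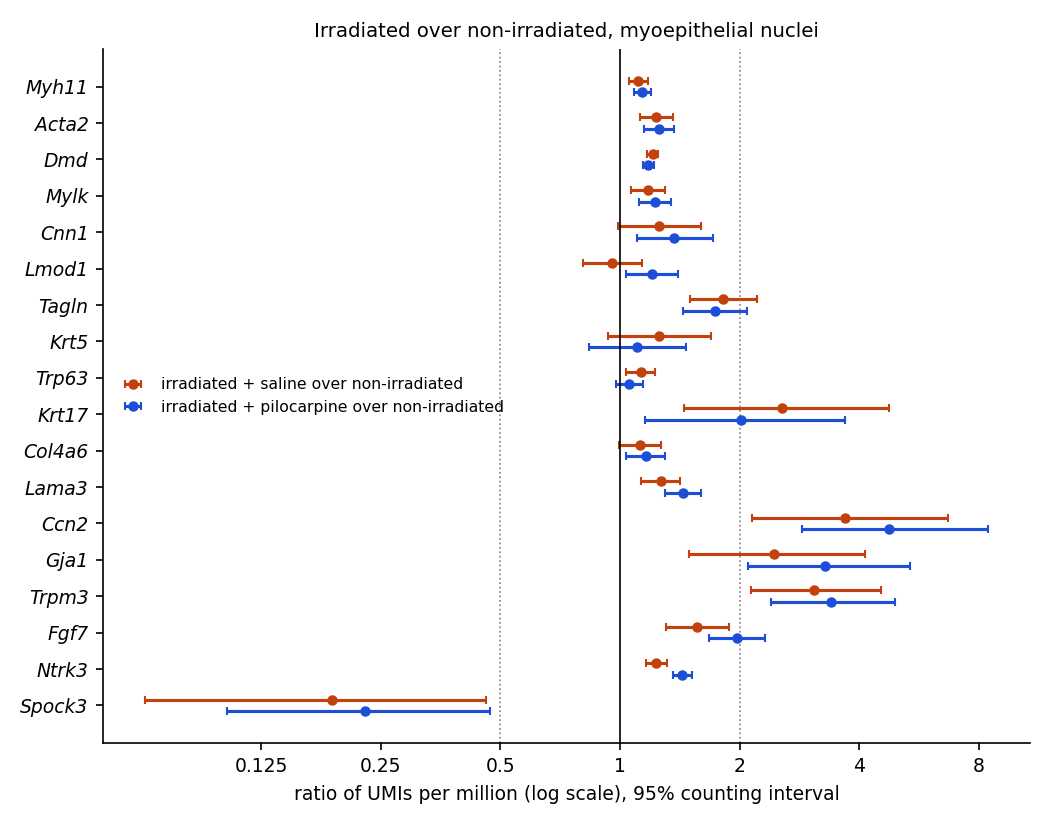
Ratio of CPM in myoepithelial nuclei for 18 genes, irradiated + saline (orange) and irradiated + pilocarpine (blue) each over the same non-irradiated library, on a log axis with 95% counting intervals and dotted lines at 2-fold. Contractile genes other than Tagln lie within 1.37-fold of 1, while Ccn2, Gja1 and Trpm3 lie above 2 and Spock3 below 0.5 in both. Myh11 is a gene of the rule.

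Basal epithelial genes had median log2 ratios of 0.10, 0.03 and 0.14 over 25 measured genes, and of −0.17, −0.07 and −0.06 in thinned nuclei. Trp63 was at 657, 741 and 694 CPM, and Krt5 at 54.6, 68.6 and 60.3 CPM. Both were within 1.26-fold across the 3 libraries. Krt14 was at 32.4, 53.9 and 45.7 CPM, 1.66 times (1.16 to 2.42) the non-irradiated level with saline. Krt17, a keratin of stressed and wounded epithelium, was the only gene of the list called higher, from 17, 48 and 57 UMIs, and 1 of 25 is close to the background (3.99% and 4.07% higher). It was at 11.5, 29.4 and 23.1 CPM, 2.56 times (1.45 to 4.75) the non-irradiated level with saline and 2.01 times (1.15 to 3.69) with pilocarpine. In thinned nuclei these ratios of Krt17 were 1.61 and 1.10. Col17a1, a hemidesmosome collagen, was at 64.1, 86.9 and 86.6 CPM, and Itga6, the integrin of hemidesmosomes, at 767, 853 and 902 CPM. Cd44, a hyaluronan receptor, was 2.11-fold lower (1.81 to 2.46) with saline, at 329, 156 and 240 CPM, but its level in the other nuclei was higher and ordered the same way (583, 342 and 435 CPM).

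Genes of the basement membrane and matrix had median log2 ratios of 0.20 between saline and non-irradiated, 0.09 between pilocarpine and saline and 0.29 between pilocarpine and non-irradiated, and of 0.22, −0.12 and 0.13 in thinned nuclei. Of 27 measured genes 4 were called with saline, all higher (background 3.99% higher), and of 28 with pilocarpine against non-irradiated 4 were called, all higher (4.07%). Ccn2, a matricellular growth factor partner also known as CTGF, had 17, 69 and 135 UMIs. It was at 11.5, 42.2 and 54.6 CPM, which is 3.68 times (2.14 to 6.68) the non-irradiated level with saline and 4.77 times (2.87 to 8.42) with pilocarpine. The other nuclei held it at 1.25, 3.09 and 5.05 CPM. No nucleus held more than 5 of its UMIs. In alternative selections of nuclei the pilocarpine ratio of Ccn2 ran from 2.61 (thinned) to 9.64 (at least 1000 genes).

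Ccn1, its relative, had 4, 16 and 16 UMIs and was called in both irradiated libraries, as was Lamc3, a laminin chain with 7, 19 and 31 UMIs. The Lamc3 level was below that of the other nuclei (4.72, 11.6 and 12.5 CPM against 13.1, 16.3 and 17.1 CPM), and its ratios were 0.650 and 0.481 in thinned nuclei. Tnc, tenascin C, had 3, 15 and 20 UMIs and a pilocarpine over non-irradiated ratio of 4.0 (1.19 to 21.0). Thbs1, thrombospondin 1, was highest with saline, at 17.5, 39.8 and 26.3 CPM. The laminin chain Lamc1 followed the same order, at 64.1, 119 and 80.9 CPM. Lama3, the alpha chain of the laminin that anchors hemidesmosomes, was more abundant, at 364, 461 and 524 CPM. Its ratio over the non-irradiated library was 1.27 (1.13 to 1.42) with saline and 1.44 (1.30 to 1.59) with pilocarpine. The basement membrane collagen gene Col4a6 was at 327, 367 and 379 CPM. Lama4 was 2.29-fold lower (1.43 to 3.73) with pilocarpine than with saline, at 24.3, 28.8 and 12.5 CPM, and was below the level of the other nuclei (28.4, 33.1 and 37.6 CPM).

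Integrin and focal adhesion genes had median log2 ratios of 0.06, −0.01 and 0.12 (0.00, −0.02 and −0.10 in thinned nuclei), with none of 25 genes called in any comparison (background 6.19%, 5.17% and 6.78%). Itga8, an integrin chain of smooth muscle-like cells, was at 543, 526 and 592 CPM against 22.8, 18.9 and 33.5 CPM in the other nuclei. Ilk, integrin-linked kinase, was at 56.0, 99.2 and 81.3 CPM, 1.77 times (1.35 to 2.34) the non-irradiated level with saline. Itga9, an integrin chain that binds tenascin, was at 30.3, 49.6 and 54.6 CPM, 1.80 times (1.28 to 2.58) with pilocarpine.

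Receptors that couple nerve signals to contraction were measured next. Their median log2 ratios were −0.01, 0.05 and −0.07. Chrm3, the M3 muscarinic receptor that pilocarpine acts on, was at 3057, 2788 and 2917 CPM in members and at 3375, 2762 and 3056 CPM in the other nuclei. The level in members thus could not be set apart from that in the other nuclei, and it differed by no more than 1.10-fold between libraries. How much of it was RNA from other cells was not tested. Plcb4, a phospholipase C of this pathway, was at 4486, 4042 and 4821 CPM against 3346, 3103 and 3236 CPM. Adra1a, an alpha-1 adrenergic receptor, was 4.54-fold lower (3.82 to 5.42) with pilocarpine than with saline, at 237, 321 and 70.8 CPM, but stood at 242, 431 and 161 CPM in the other nuclei. Gucy1a1, a subunit of the nitric oxide receptor guanylate cyclase, was enriched in members at 38.4, 38.6 and 52.6 CPM against 1.74, 2.54 and 4.18 CPM. Gnao1, a G protein subunit, was at 10.8, 28.2 and 19.4 CPM, 2.61 times (1.45 to 4.94) the non-irradiated level with saline, a ratio of 1.39 in thinned nuclei.

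Ion channel and gap junction genes had a median log2 ratio of 0.29 between saline and non-irradiated, with 4 of 23 called, all higher (background 3.99% higher). The median was 0.02 in thinned nuclei. Between pilocarpine and non-irradiated the median at full depth was 0.02, with 3 of 25 genes called higher and 4 lower (background 4.07% and 2.72%). The lower ones were Kcnq1, Kcnj15, Kcnj16 and Cacnb2. Gja1, connexin 43, the gap junction protein that couples neighbouring muscle-like cells, had 23, 62 and 126 UMIs. It was at 15.5, 38.0 and 51.0 CPM in members against 4.69, 6.61 and 7.71 CPM in the other nuclei. The ratio over non-irradiated was 2.45 (1.49 to 4.14) with saline and 3.29 (2.10 to 5.37) with pilocarpine. Trpm3, a calcium-permeable cation channel, had 38, 129 and 215 UMIs. It was at 25.6, 79.0 and 87.0 CPM against 4.03, 6.17 and 8.29 CPM in the others, with ratios of 3.08 (2.13 to 4.55) and 3.40 (2.40 to 4.93). Both genes were low in the non-irradiated library and overlapped between the irradiated libraries. The pilocarpine ratio of Trpm3 was 1.60 in thinned nuclei.

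Trpc4, a receptor-operated cation channel, was lowest without irradiation and highest with pilocarpine, at 18.2, 26.9 and 38.0 CPM against 1.08, 1.02 and 1.52 CPM in the others. Its pilocarpine over non-irradiated ratio was 2.09 (1.35 to 3.34). The large calcium-activated potassium channel gene Kcnma1 was at 2617, 2128 and 2519 CPM, below its level in the other nuclei (3989, 4187 and 4288 CPM). Between pilocarpine and saline 6 of 24 genes of the list were called, all lower (background 3.22% lower). Among them were the potassium channel genes Kcnq1 (72.8, 89.4 and 23.5 CPM) and Kcnj16 (36.4, 40.4 and 8.50 CPM). Their levels in the other nuclei were 71.1, 116 and 53 CPM and 33.0, 54.5 and 18.3 CPM, also lowest with pilocarpine, as was the sum of the duct markers given above. The part of duct RNA in these calls was not tested.

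Calcium store and pump genes had median log2 ratios of −0.09, 0.01 and −0.01. The inositol trisphosphate receptor Itpr1 was at 775, 783 and 707 CPM and the pump Atp2a2 (SERCA2) at 676, 602 and 770 CPM, both above the level of the other nuclei. The pump Atp2a3 (SERCA3) was at 908, 472 and 501 CPM, 1.92-fold lower (1.76 to 2.11) with saline than without irradiation. Its level in the other nuclei was higher, at 1430, 1048 and 1103 CPM. The only called gene among 19 was Orai2, a store-operated calcium channel, with 2, 6 and 18 UMIs, close to the background of 4.07% higher with pilocarpine than without irradiation.

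Neurotrophic, guidance and ErbB genes split by whether members or other nuclei held them. Ntrk3, the receptor of neurotrophin-3, was at 1225, 1510 and 1758 CPM in members against 36.5, 38.2 and 84.2 CPM in the others. Its ratio over non-irradiated was 1.23 (1.16 to 1.31) with saline and 1.44 (1.36 to 1.52) with pilocarpine. Nrtn, the neurotrophic ligand neurturin, was at 27.0, 35.5 and 44.5 CPM against 4.07, 3.34 and 4.95 CPM, with a pilocarpine ratio of 1.65 (1.14 to 2.43). Robo1, a receptor of Slit guidance cues, was at 120, 214 and 177 CPM, with ratios of 1.78 (1.49 to 2.15) and 1.47 (1.23 to 1.76). In the saline library 54 of its 350 UMIs were in 1 nucleus. Robo2 had 10, 161 and 20 UMIs, of which 114 of the 161 were in 1 nucleus. Its saline over non-irradiated ratio was 14.6 (7.74 to 31.1), or 4.74 without that nucleus and 0.433 in thinned nuclei.

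The duct product Egf and the guidance cue Slit2 were among the genes lowest with pilocarpine. Slit2 was at 1106, 1939 and 416 CPM, 4.66-fold lower (4.34 to 5.0) with pilocarpine than with saline. Egf, epidermal growth factor, was at 1263, 1447 and 272 CPM. In the other nuclei Slit2 was at 1138, 2671 and 825 CPM and Egf at 1082, 2239 and 693 CPM, again lowest with pilocarpine. Tmcc3 (796, 946 and 220 CPM), Eepd1 (146, 189 and 41.7 CPM) and Nos1, neuronal nitric oxide synthase (60.0, 42.8 and 15 CPM), had the same lowest library and like levels in the other nuclei. Erbb4, a receptor of EGF family ligands, was at 800, 347 and 473 CPM, 2.31-fold lower (2.08 to 2.55) with saline than without irradiation, and below the other nuclei's 1548, 980 and 1088 CPM. For these 6 genes the part of RNA from other cells was not tested.

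Growth factor and developmental signalling genes had median log2 ratios of 0.30, −0.10 and 0.22, where the second was 0.06 after subtraction of free RNA. Fgf7, a fibroblast growth factor that signals to the Fgfr2 receptor of epithelium, had 194, 334 and 635 UMIs. It was at 131, 204 and 257 CPM in members against 8.47, 9.22 and 18.1 CPM in the others. Each library lay above the one before: the saline over non-irradiated ratio was 1.56 (1.31 to 1.88), pilocarpine over saline was 1.26 (1.10 to 1.44) and pilocarpine over non-irradiated was 1.96 (1.67 to 2.32). Igfbp5, which binds insulin-like growth factors, was at 64.7, 121 and 111 CPM, 1.87 times (1.46 to 2.41) with saline and 1.72 times (1.36 to 2.19) with pilocarpine. Lgr6, an R-spondin receptor, was at 19.6, 35.5 and 32.4 CPM, with ratios of 1.82 (1.14 to 2.94) and 1.66 (1.07 to 2.63). Tgfbr3, a TGF-beta co-receptor, was at 575, 706 and 763 CPM. The Notch ligand Dll1 was at 16.2, 22.6 and 28.3 CPM against at most 1.20 CPM in the others. Wnt5a was at 20.2, 13.5 and 26.3 CPM, 1.95 times (1.19 to 3.33) as high with pilocarpine as with saline. Wnt4 and Tgfb2 were called lower with pilocarpine than with saline, at 70.1, 46.5 and 18.6 CPM and at 117, 151 and 65.6 CPM. The other nuclei had Wnt4 at 54.0, 64.5 and 33.7 CPM and Tgfb2 at 108, 212 and 107 CPM.

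Interferon response genes were higher in both irradiated libraries than without irradiation. Of 34 measured genes 11 were higher and 1 was lower with saline than without irradiation (background 3.99% and 2.2%), and of 35 genes 15 were higher and 1 lower with pilocarpine than without irradiation (4.07% and 2.72%). Between pilocarpine and saline 3 of 39 were higher and 2 lower (1.95% and 3.22%). The median log2 ratios were 0.47, 0.08 and 0.80 in members and 0.85, −0.03 and 0.92 in the other nuclei for saline over non-irradiated, pilocarpine over saline and pilocarpine over non-irradiated. After subtraction of free RNA the medians in members were 0.05, 0.08 and 0.58. Immune markers were at 44.5, 112 and 73.7 CPM in members, and their part in these values was not tested.

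Several of these genes were high in both irradiated libraries, as was Ifitm3, which is outside the list. Rtp4 had 6, 34 and 40 UMIs and was at 4.05, 20.8 and 16.2 CPM. Its ratio over non-irradiated was 5.14 (2.13 to 15) with saline and 4.0 (1.69 to 11.5) with pilocarpine, and the other nuclei had it at 7.02, 20.1 and 18.9 CPM. Ifitm3, a membrane protein that blocks virus entry, had 8, 48 and 50 UMIs and was at 5.39, 29.4 and 20.2 CPM against 2.62, 9.58 and 9.49 CPM in the others. Its ratios were 5.45 (2.55 to 13.3) and 3.75 (1.76 to 9.16). Oasl2 and Ifi27l2a were at 24.9, 80.2 and 61.5 CPM and at 17.5, 57.5 and 57.1 CPM, so their pilocarpine levels were 2.47 times (1.71 to 3.63) and 3.25 times (2.13 to 5.15) the non-irradiated ones. Rsad2, viperin, went the other way, with 32, 9 and 19 UMIs, 3.92-fold lower (1.83 to 9.33) with saline. Of its 32 UMIs 10 were in 1 nucleus, and among members with none of the excluding genes the ratio of Rsad2 with saline over non-irradiated was 0.920.

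Other interferon genes were high with pilocarpine beside both other libraries in UMIs summed over members. These were GTPases of the response to interferon-gamma (Gbp2, Gbp4, Gbp5, Gbp6, Gbp8, Iigp1 and Igtp) and Nlrc5, the transactivator of MHC class I genes. This set of 8 was put together after its values were seen. Nlrc5 (plus strand of chr8:94434356-94527272) had 44, 59 and 267 UMIs and was at 29.7, 36.1 and 108 CPM. Its pilocarpine level was 2.99 times (2.25 to 4.04) the saline level and 3.64 times (2.64 to 5.13) the non-irradiated level, while saline over non-irradiated was 1.22 (0.810 to 1.84). The other nuclei had it at 20, 42.7 and 82.1 CPM. Gbp4 had 7, 4 and 90 UMIs, and its pilocarpine over saline ratio was 14.9 (5.61 to 55.8). Iigp1 had 15, 24 and 176 UMIs and a ratio of 4.85 (3.15 to 7.77). Gbp2, whose promoter window is printed above, had 11, 15 and 92 UMIs and a ratio of 4.05 (2.33 to 7.54), Gbp5 had 11, 17 and 98 UMIs and 3.81 (2.26 to 6.81), and Igtp 2, 5 and 43 UMIs and 5.69 (2.26 to 18.4). H2-Q6, an MHC class I gene, was at 6.74, 28.8 and 71.6 CPM, 2.49 times (1.80 to 3.51) the saline level with pilocarpine. The chemokine gene Cxcl10 had 0, 6 and 44 UMIs, at least 8.80-fold higher with pilocarpine than without irradiation by a floor of 3 counts per library, but 32 of the 44 were in 1 nucleus.

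These UMIs were unevenly spread over nuclei. The 8 genes summed to 74.8, 97.9 and 384 CPM. At least 1 of them was detected in 15.2%, 19.9% and 36.6% of members and in 7.33%, 15.8% and 26.8% of the other nuclei. At least 3 were detected in 2, 6 and 51 members, or 0.482% (0.0584 to 1.73), 1.31% (0.482 to 2.83) and 6.60% (4.95 to 8.58), and in 0.352%, 1.31% and 4.41% of the others. In the pilocarpine library those 51 nuclei held 579 of the 950 UMIs (60.9%), and 198 were in 1 nucleus. Without members that had 3 or more, some pilocarpine over saline ratios had intervals that include 1. These were 1.21 (0.583 to 2.61) for Gbp2 and 1.68 (0.877 to 3.41) for Gbp5. They were also 1.26 (0.614 to 2.72) for Gbp6 and 2.62 (0.692 to 14.6) for Igtp. Gbp4 was at 3.39 (1.13 to 13.7) and Gbp8 at 2.14 (1.12 to 4.38), with Iigp1 at 1.77 (1.05 to 3.09). Nlrc5 was at 2.28 (1.67 to 3.15). The members left out were picked on these genes, so this is description only. For single genes, the top nucleus held 67 of 176 UMIs of Iigp1, 40 of 92 of Gbp2 and 34 of 98 of Gbp5, but 5 of 267 of Nlrc5.

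The 51 nuclei carried myoepithelial genes: 44 had a contractile gene and 37 had Krt5, Krt14 or Trp63. Of them 7 had a UMI of any immune marker and 1 had 3 immune markers, while 9.97% of the remaining members had an immune UMI. They were deeper, with a median of 3021 UMIs against 2020.5 in the remaining members.

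**Figure D4:**
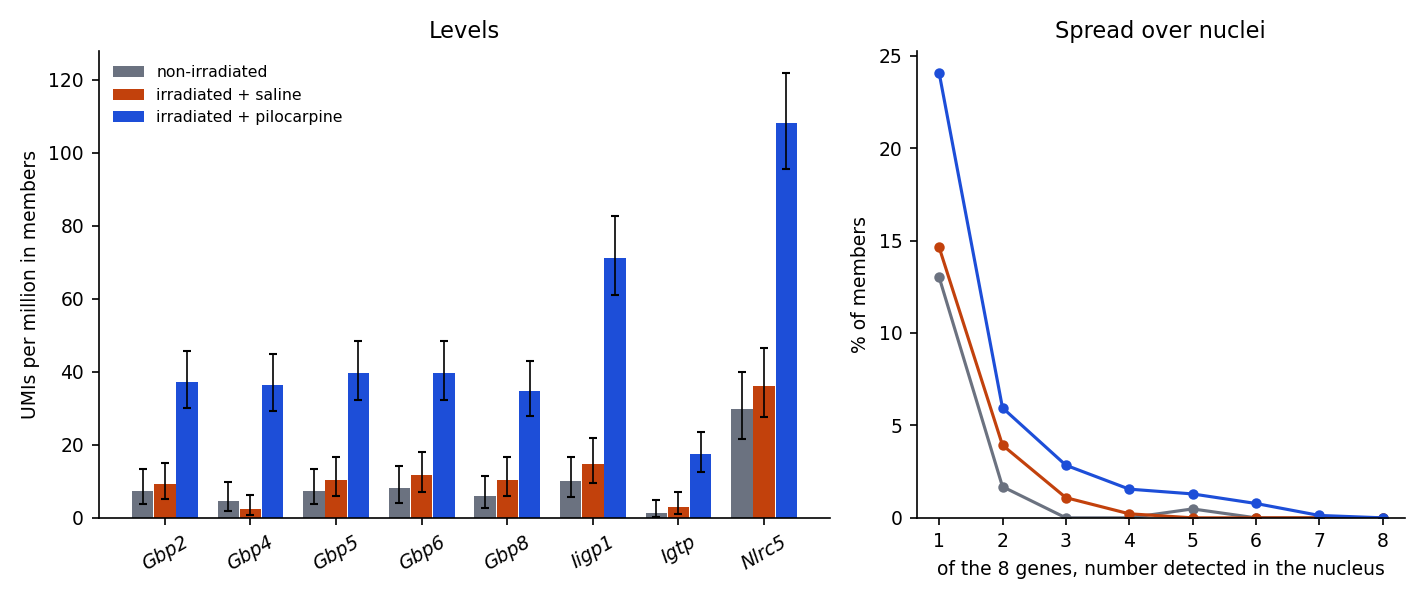
Level of 8 interferon genes in myoepithelial nuclei of each library (left, CPM with exact 95% counting intervals) and share of members by how many of the 8 genes were detected (right, % of members). The pilocarpine bars are the tallest for each of the 8 genes, and 51 of its members had 3 or more of them. The 8 genes were put together after their values were seen, so the order of the bars is no separate finding.

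Targets of p53, the factor that responds to DNA damage, were measured with the same rule. Of 24 genes 5 were higher with saline than without irradiation and none lower (background 3.99% and 2.2%), and of 27 genes 6 were higher with pilocarpine than without irradiation and none lower (4.07% and 2.72%). The median log2 ratios were 0.51, 0.03 and 0.57 in members and 0.55, 0.03 and 0.58 in the other nuclei. In thinned members, chosen anew, the medians were 0.23, 0.11 and −0.0016 over only those genes that kept the UMI minimum. Aen, a nuclease of apoptosis, had 7, 34 and 56 UMIs. It was at 4.72, 20.8 and 22.7 CPM, which is 4.41 times (1.92 to 11.8) and 4.80 times (2.18 to 12.5) the non-irradiated level, but its level in the other nuclei was higher (13.2, 26.5 and 27.7 CPM). Phlda3, an inhibitor of Akt signalling, was at 6.07, 17.1 and 17.0 CPM, above the 0.747, 3.19 and 3.30 CPM of the other nuclei. It had 9, 28 and 42 UMIs, and its saline over non-irradiated ratio of 2.82 (1.30 to 6.80) was 0.650 in thinned nuclei. Fas, a death receptor, was at 27.6, 39.2 and 51.4 CPM against 3.78, 5.74 and 8.22 CPM, 1.86 times (1.30 to 2.71) the non-irradiated level with pilocarpine. Ccng1 and Zmat3 were called with pilocarpine, at 14.8, 26.9 and 34.8 CPM and at 10.8, 21.4 and 25.9 CPM. Mdm2, the p53 ubiquitin ligase, was at 111, 106 and 100 CPM, within 1.11-fold in all comparisons.

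A few genes outside these lists were named because their ratios between libraries were among the most extreme by interval bound. In the higher library of the pair, they also had to be at least as high in members as in other nuclei. Both traits were thus set by the choice and are no finding. Camk4, a calcium-calmodulin kinase, had 5, 38 and 44 UMIs and was at 3.37, 23.3 and 17.8 CPM. Its ratios over non-irradiated were 6.90 (2.71 to 22.5) and 5.28 (2.10 to 17.1), and 2.17 and 2.16 in thinned nuclei. Ccnd2, cyclin D2, was at 6.07, 28.2 and 19.8 CPM, with ratios of 4.64 (2.24 to 10.8) and 3.27 (1.59 to 7.57). Spock3, a matrix proteoglycan, had 29, 6 and 11 UMIs, 5.32-fold lower (2.17 to 15.7) with saline and 4.39-fold lower (2.13 to 9.75) with pilocarpine, and was under 1 CPM in the other nuclei. Pex5l, a regulator of pacemaker channels, was low with saline, at 37.1, 12.2 and 37.6 CPM. Its pilocarpine over saline ratio was 3.07 (1.88 to 5.26).

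Immediate early and stress genes were high with saline. All 15 measured genes lay above the non-irradiated level with 4 of them called (background 3.99% higher), where 5947 of 11207 genes in all lay above it. With pilocarpine 13 of 17 lay below the saline level with 3 called (3.22% lower), where 6012 of 12022 genes in all lay below it. The median log2 ratios were 0.63, −0.37 and 0.28 in members and 0.74, −0.39 and 0.29 in the other nuclei. Egr1, a transcription factor induced within minutes of a stimulus, was at 16.9, 32.4 and 14.6 CPM, 2.23-fold lower (1.43 to 3.50) with pilocarpine than with saline. Jun was at 13.5, 25.7 and 10.5 CPM, and its pilocarpine over saline ratio turned to 1.11 in thinned nuclei. Klf6 was at 17.5, 39.8 and 37.6 CPM, high in both irradiated libraries, with ratios of 2.27 (1.42 to 3.73) and 2.15 (1.38 to 3.46). Glucocorticoid targets were also highest with saline. Their medians were 0.76, −0.29 and 0.31. With saline 9 of 10 lay above the non-irradiated level and 3 were called higher (background 3.99%), and with pilocarpine 9 of 10 lay below the saline level and 2 were called lower (3.22%). Sgk1, a kinase induced by glucocorticoids, was at 16.9, 49.0 and 18.2 CPM, and Fkbp5, a chaperone of their receptor, at 87.7, 150 and 55.4 CPM. In the other nuclei they were at 14.4, 46.0 and 19.7 CPM and at 95.1, 233 and 103 CPM, in the same order but for the lowest library of Fkbp5. After subtraction of free RNA the saline over non-irradiated ratio of Fkbp5 was 0.152. The hour of collection, which the labels do not give, cannot be told apart from the groups for these genes.

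Of 19 measured clock genes 3 were called higher and 2 lower with saline than without irradiation (background 3.99% and 2.2%). The pilocarpine over saline ratio of Cry1 was 0.472 in members, 0.858 in the other nuclei and 1.12 in fibroblast nuclei. Npas2 was described in most depth, since it also stood otherwise in members than in other nuclei. It encodes a partner of the clock activator Arntl (BMAL1). Npas2 (ENSMUSG00000026077, plus strand of chr1:39193731-39363236) had 152, 129 and 264 UMIs in members and stood at 102, 79.0 and 107 CPM. It stood at 40.7, 4.68 and 10.7 CPM in the other nuclei and at 65.9, 12 and 24 CPM in fibroblast nuclei. With saline it was 1.30-fold lower (1.02 to 1.65) than without irradiation in members, 8.69-fold lower in the other nuclei and 5.49-fold lower in fibroblast nuclei. Members thus held a similar level in all 3 libraries while both other sets of nuclei were low in the irradiated ones. The difference between the sets of nuclei was not tested. In alternative selections and scalings of members the saline over non-irradiated ratio of Npas2 ran from 0.726 to 0.920.

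Arntl and Per2, which oscillate in opposite phase in most tissues, were ordered in members as elsewhere. Arntl had 41, 13 and 28 UMIs and was at 27.6, 7.96 and 11.3 CPM against 36.0, 4.87 and 6.77 CPM in the other nuclei. It was 3.47-fold lower (1.82 to 7.07) with saline and 2.44-fold lower (1.47 to 4.10) with pilocarpine, but after subtraction of free RNA the ratios of Arntl over non-irradiated were 0.989 and 1.56. Per2 was at 33.0, 88.8 and 74.1 CPM against 18.0, 95 and 74.5 CPM. Its ratios of 2.69 (1.93 to 3.79) and 2.24 (1.63 to 3.14) were 1.26 and 1.04 after that subtraction. The clock repressor gene Ciart was low without irradiation (4.05, 17.8 and 18.6 CPM) and Nfil3 high (20.2, 5.51 and 9.31 CPM), both below the level of the other nuclei. Rora, a nuclear receptor of the clock, was at 1051, 1305 and 1240 CPM. The hour of collection cannot be told apart from the groups.

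**Figure D5:**
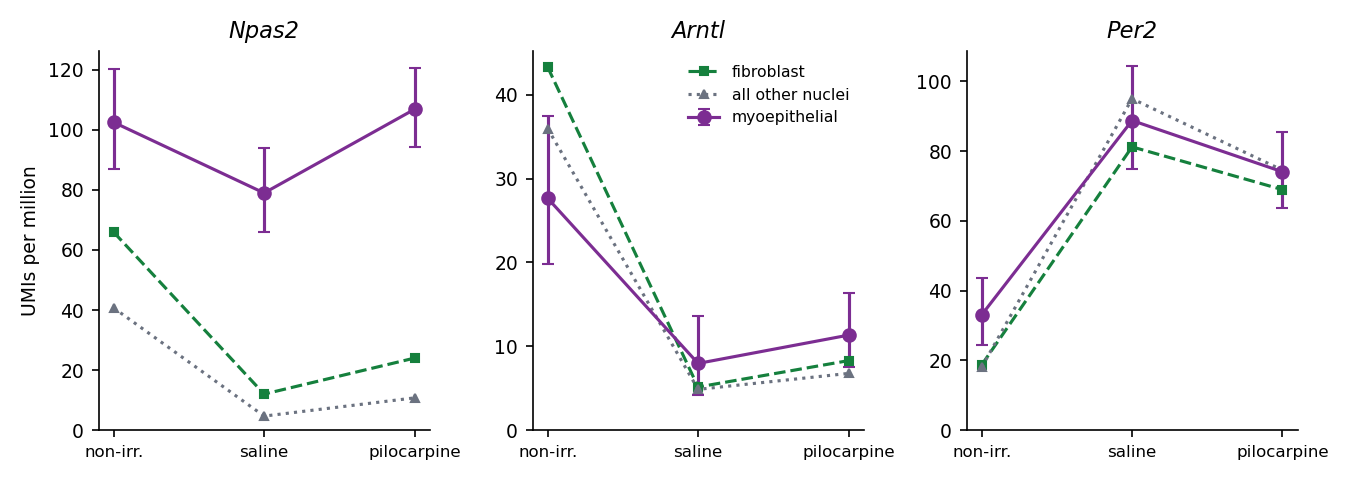
Level of Npas2, Arntl and Per2 (CPM) in myoepithelial, fibroblast and all other nuclei of each library, with exact 95% counting intervals on the myoepithelial points. Npas2 stays at 79.0 CPM or more in myoepithelial nuclei, whereas in other nuclei it is at 40.7 CPM without irradiation and at 4.68 and 10.7 CPM in the irradiated libraries.

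Some genes were seen in 1 library or came from few nuclei. Rnf212b, a gene of meiotic recombination, had 58, 0 and 0 UMIs in members and was at least 21.3-fold lower with saline and at least 32.2-fold lower with pilocarpine, by a floor of 3 counts per library. Padi4, a peptidyl arginine deiminase, had 42, 0 and 0 UMIs, at least 15.4-fold and 23.3-fold lower. Both were also near 0 in the other nuclei of the irradiated libraries, at 0.182 and 0.130 CPM for each, against 27.4 and 10.9 CPM without irradiation. Both were thus at or near 0 in members and other nuclei alike in those libraries, and whether strain or annotation differs between the libraries was not tested. Grm7, a glutamate receptor, had 3, 57 and 0 UMIs, of which 29 of the 57 were in 1 nucleus, and Tspear had 11, 76 and 6 UMIs, of which 22 of the 76 were in 1 nucleus. Igsf21 was at 37.1, 12.2 and 3.24 CPM in members and at 34.6, 11.7 and 5.67 CPM in the other nuclei, the same order in both.

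Cycling markers summed to 14.2, 23.9 and 36.4 CPM in members and to 21.2, 39.0 and 29.9 CPM in the other nuclei. At least 2 of these genes were detected in 1, 6 and 5 members, and at these depths the share of cycling nuclei cannot be read from such counts. Genes of the unfolded protein response had medians of −0.01, 0.01 and 0.05, and nuclear genes of oxidative phosphorylation 0.22, −0.09 and 0.13. Free RNA subtraction and thinning turned the sign of some of these medians, and no reading of direction is given for them.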

How the data were processed

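Nuclei of mouse submandibular glands were measured in 3 libraries, 1 per group, with a droplet kit that reads the 3' end of RNA. The deposited values are raw UMI counts per gene and barcode, made by the authors with Cell Ranger 7.0.1 on GRCm38, per the submitters' processing notes. Libraries held 12062, 10161 and 10288 barcodes and 26417958, 29946943 and 34322111 UMIs. Counts of members were summed per library and given as CPM. Python 3.11.15, numpy 2.4.6, scipy 1.17.1, pandas 2.3.3 and matplotlib 3.10.9 were used. Intervals are Clopper-Pearson for shares, Newcombe for their differences, exact Poisson for levels and conditional binomial for ratios. They cover counting error only. List medians use log2 of CPM + 1.

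A gene entered a comparison when the 2 libraries summed to 20 UMIs or more, and was called at 2-fold. Named genes were the 8 highest and 8 lowest per comparison with at least 30 UMIs, ranked by the interval bound closer to equal levels. In the higher library of the pair, their level in members had to be no lower than in the other nuclei. No such limit was set in the lower library. Also named were 20 leading genes, 3 highest, 3 lowest and 3 most abundant of each list, and fixed names. The members and lists were chosen with earlier results of these data known. No doublet caller was run. The libraries shared 28 to 33 barcodes by pairs, none among members. The calculation was tested on simulated data. Some results are not reported here.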

Additional observations from a re-analysis of the deposited data

How the results depend on the processing

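No paired analysis was possible because 1 library stands for each group. Leaving out the top nucleus of each gene was chosen after seeing the data. Of 8345 ratios of named genes under alternatives, 7430 stayed within the counting interval, 904 moved and 11 turned direction. A turn was counted only for genes past 2-fold in the main comparison, so turns of other genes are not in the 11. Ratios in which a library lost all UMIs of the gene were left out. Share differences were 0.414 points for saline over non-irradiated with at least 1000 genes, 3.03 (at least 200 genes) and 2.93 (without members highest in acinar products) for pilocarpine over saline, and 4.45 (thinned to 800 UMIs), 4.39 (at least 1000 genes), 4.22 (at least 200 genes) and 3.99 (without those members) for pilocarpine over non-irradiated. Genes called, in the order saline over non-irradiated, pilocarpine over saline and pilocarpine over non-irradiated, were 694, 622 and 799, and 382, 380 and 468 thinned, 3643, 4185 and 4795 with free RNA subtracted, 1313, 1237 and 1425 with at least 10 UMIs, and 256, 244 and 341 with at least 50 UMIs. Thinning turned the p53 median of pilocarpine over non-irradiated to −0.0016, taken over members chosen anew and genes that kept the UMI minimum. It turned saline over non-irradiated ratios to 0.650 (Lamc3), 0.578 (Ntf5), 0.433 (Robo2), 0.650 (Phlda3) and 0.867 (Eda2r), pilocarpine over non-irradiated to 0.481 (Lamc3), and pilocarpine over saline to 2.77 (Robo2) and 1.11 (Jun). No UMI minimum was set for the thinned counts of these genes, so their ratios rest on few counts. Pilocarpine over saline of Ifit3 was 1.39 with no excluding gene and 1.06 without its top nucleus. Arntl was 1.56 for pilocarpine over non-irradiated with free RNA subtracted. Thinned nuclei and higher UMI minimums hold fewer UMIs or genes by construction, and the cause of the other shifts was not tested.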
